A study of Homo sapiens with 6 samples.

Results

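The sites described here are places where BRACHYURY (BRA, the product of the T gene) was detected by ChIP-seq in both differentiation media and with both antibodies. Members were chosen by the overlap of measured peak positions, as the peaks of the R&D Systems FLyB list that shared at least 1 bp with a peak of the R&D Systems FLyA list and also with a peak of either Santa Cruz list. This rule gave 1562 of the 23687 R&D Systems FLyB peaks (6.59%). Of these, 224 were met by both Santa Cruz lists, so that they were held by all 4 lists. A further 1025 were met by the Santa Cruz FLyB list and not by the Santa Cruz FLyA list, and 313 by the Santa Cruz FLyA list and not by the Santa Cruz FLyB list.

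BRA is a T-box transcription factor that binds DNA through a conserved domain shared with EOMES and the TBX proteins. In the embryo it is switched on in the primitive streak, the groove through which epiblast cells leave to form mesoderm and definitive endoderm. Activin acts in these cells through SMAD2/3 and BMP4 through SMAD1, and the study asked whether BRA occupies different sites in the cells that each signal produces. Sites found in both cell populations are the counterpart of that question.

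H9, an established human embryonic stem cell line, was kept for 36 h in a chemically defined medium. Both media contained FGF2 at 20 ng/ml and LY294002, an inhibitor of PI3 kinase, at 10 μM. FLyA medium added 100 ng/ml activin A and is labelled as giving endoderm progenitors, and FLyB medium added 10 ng/ml BMP4 and is labelled as giving mesoderm progenitors. Chromatin from each medium was precipitated with a BRA antibody from R&D Systems (AF2085) and with another from Santa Cruz (sc-20109), in 1 library per medium and antibody. The lists held 25864 peaks for R&D Systems FLyA, 23687 for R&D Systems FLyB, 2436 for Santa Cruz FLyA and 3007 for Santa Cruz FLyB. Every peak was 400 bp wide and carried a position without height, fold or p-value, so the lists give neither peak strength nor read depth and the labelled cell types could not be checked against marker genes. The study had 1 input library per medium, and the lists of both antibodies in a medium may share it. The study describes the Santa Cruz experiments as noisier and with fewer unique reads than those with the R&D Systems antibody, which bears on every site missing from a Santa Cruz list. No library was repeated with the same antibody, and no p-value is given. The 95% intervals on shares (exact Clopper-Pearson), on medians (order statistics) and on differences of shares (Newcombe) assume that peaks are independent and describe counting error alone. They do not measure the spread between cultures, and intervals of the many shares compared are not adjusted for their number.

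The Santa Cruz FLyB list accounted for most of the membership. Of the R&D Systems FLyB peaks, 36.1% overlapped a FLyA peak and 11.6% a Santa Cruz peak of either medium. These are the shares that the rule combined. Both Santa Cruz lists met 8.59% of the R&D Systems FLyB peaks that had any Santa Cruz peak, and 14.3% of the members. Santa Cruz FLyB peaks met 1249 of the members (80.0%) and Santa Cruz FLyA peaks met 537 (34.4%). Counted from the Santa Cruz lists, 41.6% of the FLyB peaks (39.8 to 43.4%) and 22.0% of the FLyA peaks (20.4 to 23.7%) lay on a member. Among the common R&D Systems peaks 18.3% were met by a Santa Cruz peak, and among the FLyB-only peaks 7.91% were. The Santa Cruz FLyA list met 6.28% of the common and 0.522% of the FLyB-only peaks, and the Santa Cruz FLyB list met 14.6% and 7.47%. Of the 237 R&D Systems FLyB peaks met by both Santa Cruz lists, 224 (94.5%, 90.8 to 97.1%) were common to the media. These values chose the members and are descriptions. Counted from the R&D Systems FLyA list, the rule gave 1559 members, of which 222 were met by both Santa Cruz lists.

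Few members were close to the limit of the rule. The members with the smallest overlap of their FLyA and FLyB peaks shared 2, 5, 12 and 12 bp, and 31 members shared under 100 bp. Just outside, the FLyB-only peaks with a Santa Cruz peak lay 3, 4, 17 and 22 bp from the nearest FLyA peak, and 16 lay within 100 bp. On the side of the antibody, the smallest overlaps were 12, 13, 18 and 25 bp, and the closest common peaks without a match lay 7, 7, 10 and 10 bp from a Santa Cruz peak.

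At members, the FLyA and FLyB peaks were closer to each other than at common peaks without a Santa Cruz peak. Since the rule required these peaks to overlap and all peaks have the same width, the distance between their midpoints could not reach 400 bp, and its values are a description. The midpoints of the R&D Systems peaks of the media lay a median of 29 bp apart (27 to 31 bp), with quartiles of 12 and 58 bp. At the 6996 common peaks without a Santa Cruz peak the median was 40 bp (39 to 41 bp). At most 50 bp separated the media at 69.8% of the members (67.4 to 72.1%) and at 58.5% of the other common peaks (57.4 to 59.7%). Among the members, those met by both Santa Cruz lists were closest with a median of 20.5 bp (15 to 26 bp), followed by 29 bp (27 to 32 bp) for those met by the FLyB list and 36 bp (30 to 42 bp) for those met by the FLyA list. The intervals of the last pair overlap. Away from the long peak-free stretches described below, members met by both Santa Cruz lists had a median of 25 bp (20 to 29 bp). That interval overlaps the one given here for members met by the FLyB list. The signed distance had a median of 0 bp over all members, so the FLyA peaks lay about as often to the left of the FLyB peaks as to the right.

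Read the other way, common peaks placed alike in the media had a larger share met by the Santa Cruz antibody. The overlap with Santa Cruz peaks is part of the rule, so these shares are a description. This count left out places beside the long peak-free stretches described below. With midpoints at most 10 bp apart, 17.5% of the common peaks (15.5 to 19.6%) were met by a Santa Cruz FLyB peak and 7.73% (6.36 to 9.29%) by a Santa Cruz FLyA peak. At 201 to 399 bp these shares were 7.87% (5.84 to 10.3%) and 4.02% (2.59 to 5.92%). Both Santa Cruz lists met 3.27% (2.39 to 4.37%) in the closest class and 0.503% (0.104 to 1.46%) in the farthest, the latter from 3 of 597 peaks. In the 4 classes in between, in order of distance, the Santa Cruz FLyB shares were 18.4%, 14.3%, 12.2% and 8.47%, so the closest class did not have the highest share.

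**Figure D1:**
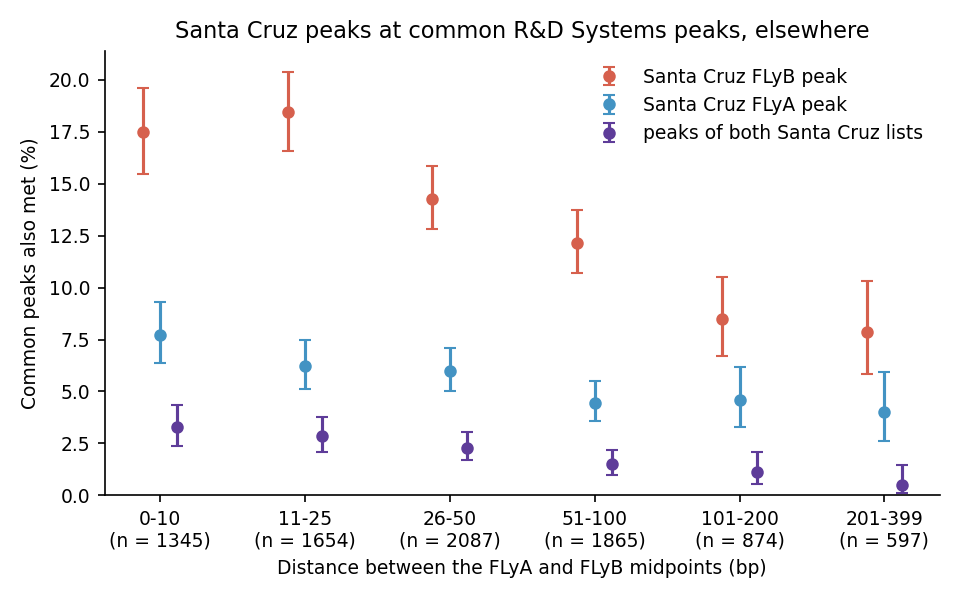
Share of common R&D Systems peaks (vertical axis, %) that also overlapped a Santa Cruz peak, by the distance between their FLyA and FLyB midpoints (horizontal axis, bp), without places beside peak-free stretches. Points are shares with exact 95% intervals. The Santa Cruz FLyB share lay at 17.5% for midpoints at most 10 bp apart and at 7.87% for midpoints 201 to 399 bp apart.

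At members on 3 lists, the distance of the R&D Systems peak to the other medium was compared with that to the other antibody. For members met by the Santa Cruz FLyB list alone, both distances belong to overlaps that the rule required. For those met by the Santa Cruz FLyA list alone, only the distance between media does. There the rule required both FLyA peaks to overlap the R&D Systems FLyB peak, and not each other. The distance between antibodies could thus exceed 400 bp in that set, while the distance between media could not. The counts are a description. At the 1025 members met by the Santa Cruz FLyB list alone, the R&D Systems FLyB peak lay nearer to the peak of the other medium with the same antibody at 525 sites and nearer to the peak of the same medium with the other antibody at 483, with 17 ties. The share nearer to the same antibody was 52.1% (49.0 to 55.2%). At the 313 members met by the Santa Cruz FLyA list alone, the R&D Systems FLyA peak was nearer to the same antibody at 165 sites and to the same medium at 143, a share of 53.6% (47.8 to 59.3%). Both intervals include equal numbers. Median distances were 29 bp between media and 32 bp between antibodies in the former set, and 36 and 44 bp in the latter.

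Members held by all 4 lists had a larger share beside long stretches of the genome without peaks, and their peaks were placed more alike there. The lists leave long stretches of the assembly without a peak. There were 26 stretches of at least 3 Mb in which no list held a peak. Of these, 20 lay inside a chromosome and 6 between the start of a chromosome and its first peak. The part of a chromosome after its last peak was not searched. Together the 26 stretches touched each of the 24 chromosomes with an R&D Systems FLyB peak. In the human assembly such gaps are typical of centromeres, of other blocks of heterochromatin and of the short arms of acrocentric chromosomes, and the assembled sequence at their borders is rich in satellite repeats. Of the R&D Systems FLyB peaks, 1.23% lay within 1 Mb of a stretch. The share was 19.6% (14.7 to 25.5%) for the members held by all 4 lists, or 44 of 224. It was 4.47% (2.47 to 7.39%) for members met by the Santa Cruz FLyA list alone, 1.85% (1.12 to 2.88%) for members met by the FLyB list alone and 0.843% (0.643 to 1.09%) for common peaks without a Santa Cruz peak. Within 100 kb of a stretch the shares were 14.3%, 2.56%, 0.293% and 0.214%. FLyB-only peaks with a Santa Cruz peak, which are not members, had 2.84% (1.98 to 3.95%) within 1 Mb, or 34 of 1196. Within 100 kb they had 1.003%. A share above the 1.23% of all R&D Systems FLyB peaks was thus also found at peaks not common to the media. The interval within 1 Mb overlaps that of members met by the FLyB list alone. Of the Santa Cruz FLyA and FLyB peaks, 4.56% and 4.26% lay within 1 Mb of a stretch, or 111 and 128 peaks. The R&D Systems FLyA and FLyB lists had 1.19% and 1.23% there, or 307 and 291 peaks. The lists also differ in size, and antibody, library and list size cannot be told apart in this comparison. The borders of the stretches are themselves set by peaks of these lists, so these shares are descriptions.

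At the 44 members beside a stretch most peaks recurred within a few bases in every list. The spread, which is the distance between the outermost of the 4 midpoints, had a median of 6 bp (5 to 14 bp) there and of 67.5 bp (57 to 79 bp) at the other 180. A spread of at most 10 bp was found at 27 of the 44 (61.4%, 45.5 to 75.6%) and at 7 of the 180 (3.89%, 1.58 to 7.85%), a difference of 57.5 percentage points (42.2 to 70.5). These limits were chosen after seeing the data, so the difference is a description. The distance between the R&D Systems peaks of the media had a median of 2 bp beside a stretch and 25 bp elsewhere, and that between the Santa Cruz peaks of the media 3.5 and 37.5 bp. Members on 3 lists away from the stretches had a median spread of 58 bp (54 to 62 bp) when met by the Santa Cruz FLyB list and of 70 bp (61 to 79 bp) when met by the FLyA list, where 3 midpoints enter in place of 4. Beside a stretch, the medians of these sets were 44 bp (22 to 62 bp, n = 19) and 108 bp (4 to 323 bp, n = 14), and both intervals overlap those elsewhere, so a smaller median beside a stretch was not shown for members on 3 lists. A spread of at most 10 bp was found there at 2 of the 19 (10.5%, 1.30 to 33.1%) and at 4 of the 14 (28.6%, 8.39 to 58.1%). Elsewhere the shares were 3.78% (2.69 to 5.15%) and 2.34% (0.946 to 4.76%). Beside a stretch and elsewhere, these intervals overlap for the FLyB list set and do not for the FLyA list set. Reads, input and sequence were not used here, so the part that repeats have in these sites was not tested.

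**Figure D2:**
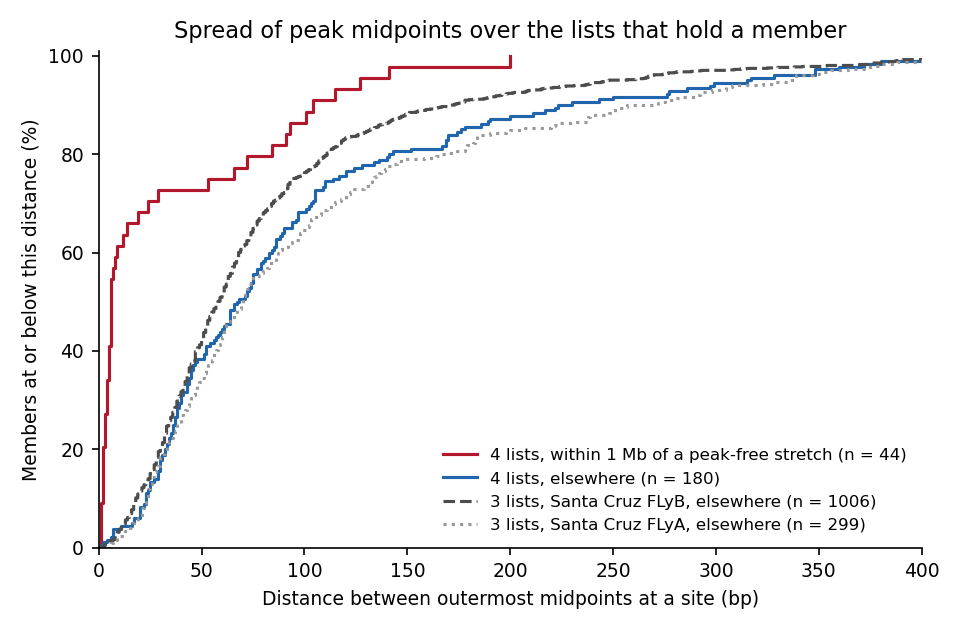
Cumulative share of members (vertical axis, %) against the distance between the outermost midpoints of the lists that hold them (horizontal axis, bp, drawn to 400). The line for the 44 members held by 4 lists within 1 Mb of a peak-free stretch rises to 61.4% by 10 bp, where the line for the other 180 stands at 3.89%.

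On chromosome 2, the border of the stretch that begins at 92323631 carried the largest gathering of members. Between 92273008 and 92323630 there were 11 members, 8 of them on all 4 lists. The peak that starts at 92316038 in R&D Systems FLyB started at the same base in R&D Systems FLyA and Santa Cruz FLyB and at 92316039 in Santa Cruz FLyA. Next to it, the R&D Systems FLyB peak from 92317550 had the same start in R&D Systems FLyA and Santa Cruz FLyB and lay at 92317552 in Santa Cruz FLyA. Both sites thus had spreads of 1 to 2 bp over 2 media and 2 antibodies.

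On chromosome 10, beyond the stretch that ends at 42359051, 8 members on all 4 lists lay within 1 Mb. At the tightest, the lists started at 42531739 (R&D Systems FLyB), 42531738 (R&D Systems FLyA), 42531738 (Santa Cruz FLyA) and 42531739 (Santa Cruz FLyB). On chromosome 19, 5 members stood between 27731841 and 27740837, 4 of them on all 4 lists, at the border of the stretch that ends at 27731820. On chromosome X the starts were 61839114, 61839113, 61839115 and 61839114 in the same order of lists. Members on all 4 lists lay beside a stretch on 16 chromosomes in all.

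Away from the stretches, 7 members also had a spread of at most 10 bp. On chromosome 11 the R&D Systems FLyB and FLyA peaks started at 48810105 and both Santa Cruz peaks at 48810106. On chromosome 10 the starts lay from 26055502 to 26055504, and on chromosome 2 from 133003122 to 133003126. The others lay on chromosome 1 from 91852783, on chromosome 3 from 16066029, on chromosome 16 from 34022529 and on chromosome 17 from 33477990, each given by its R&D Systems FLyB start. Of the 7, 2 lay within 5 Mb of a stretch. At the other end of the range, 10 members held by all 4 lists had a spread over 300 bp, and all 10 lay over 1 Mb from a stretch.

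**Figure D3:**
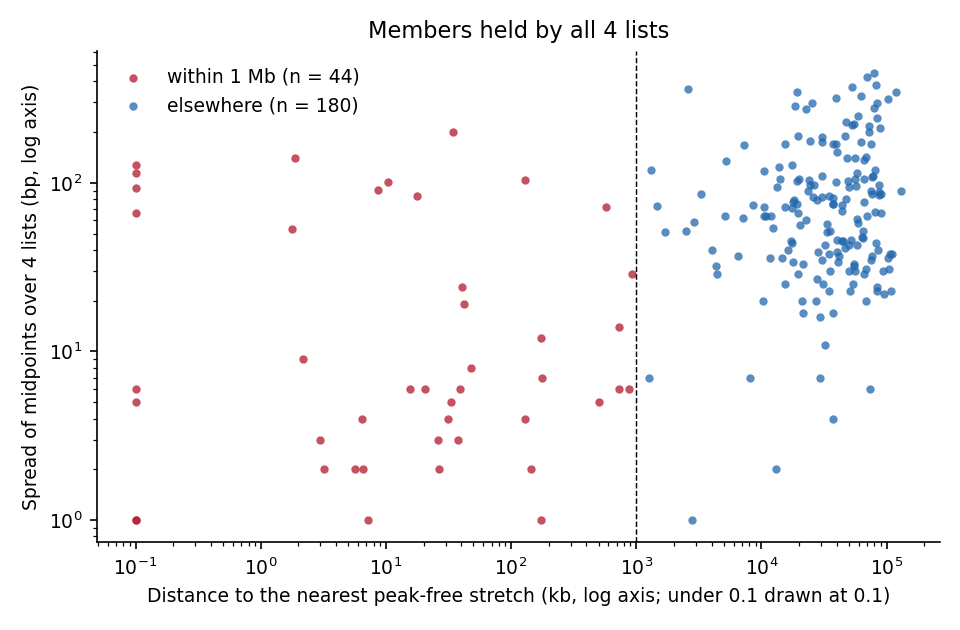
Spread of the 4 midpoints (vertical axis, bp, log scale) against the distance to the nearest peak-free stretch (horizontal axis, kb, log scale) for the 224 members held by all 4 lists. Each point is a site and the dashed line stands at 1 Mb. Of the 34 sites with a spread of at most 10 bp, 27 lie left of the line.

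Chromosome Y carried 2 members, from 10020544 to 10020943 and from 10022269 to 10022668, the latter on all 4 lists. Both lay within 1 Mb of a peak-free stretch. H9 is an XX line without a chromosome Y, and the positions are those to which the alignment assigned the reads.

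Most members stood alone. When members within 10 kb of each other were joined, 1481 separate places resulted, and 1416 of them held a single member. A further 59 places held 2 members, and 6 held 3 or more. All 6 of the latter were beside a stretch, and these were on chromosomes 2, 10 (2 places), 11, 18 and 19. Another member lay within 10 kb of 9.35% of the members (7.95 to 10.9%), against 5.10% over all R&D Systems FLyB peaks. Without places beside a stretch it was 7.14% (5.88 to 8.57%) for members and 4.35% (3.89 to 4.86%) for common peaks without a Santa Cruz peak, a difference of 2.79 percentage points (1.48 to 4.28). FLyB-only peaks with a Santa Cruz peak had a member nearby in 6.2% of cases (4.88 to 7.74%). The members differed from these by 0.942 points (-1.01 to 2.83), so a larger share at members was not shown against them. With places beside a stretch kept, that difference was 2.16 points (0.0618 to 4.2). For members on all 4 lists the share fell from 20.1% to 7.78% (4.32 to 12.7%) when places beside a stretch were left out.

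The 10 windows of 100 kb with most members included 6 that reached within 1 Mb of a stretch, and the remaining 4 were on different chromosomes. Windows with 3 members were tied for the last places and were taken in the order of the chromosome names. The fullest of these, on chromosome 17 from 44800001 to 44900000, held 5 members among 12 R&D Systems FLyB and 9 R&D Systems FLyA peaks. Its member on all 4 lists started at 44850535 in R&D Systems FLyB, 44850551 in R&D Systems FLyA, 44850551 in Santa Cruz FLyA and 44850564 in Santa Cruz FLyB. In the same window, the members from 44810092 and 44899027 were met by the Santa Cruz FLyA list and those from 44863086 and 44867577 by the Santa Cruz FLyB list, so that neighbouring sites in 100 kb were held by different Santa Cruz libraries.

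Windows on chromosomes 1, 10 and 16 held 3 members each. On chromosome 10, the members started at 97224304, 97227071 and 97240556, and the second was on all 4 lists with a spread of 223 bp. On chromosome 16, the members from 71009706 and 71010584 were neighbours within 1 kb. The former was on all 4 lists with a spread of 97 bp, and the latter was met by the Santa Cruz FLyA list with a spread of 16 bp. On chromosome 1, the members started at 44973062, 44978172 and 44989748.

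Over 1 Mb, the fullest window away from the stretches was chromosome 3 from 27000001 to 28000000, with 6 members among 12 R&D Systems FLyB and 17 R&D Systems FLyA peaks. All 6 were met by the Santa Cruz FLyB list, which holds 6 peaks there, and 1 also by the Santa Cruz FLyA list. They started at 27067219, 27147391, 27755528, 27769895, 27902530 and 27924776. The first was placed within 1 bp by its 3 lists. The fourth, on all 4 lists, had a spread of 328 bp, from 27769751 in Santa Cruz FLyA to 27770079 in Santa Cruz FLyB.

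As a whole, members more often had another R&D Systems FLyB peak nearby than common peaks without a Santa Cruz peak. In this share of FLyB neighbours, members met by the Santa Cruz FLyA list alone were not seen to differ from these common peaks. Another R&D Systems FLyB peak was present within 10 kb of 49.7% of the members (47.2 to 52.3%), of 37.9% of the other common peaks (36.8 to 39.1%) and of 40.6% of all R&D Systems FLyB peaks. The difference from the other common peaks was 11.8 percentage points (9.08 to 14.5), and it was 11.0 (8.22 to 13.8) without places beside a stretch. For members met by the Santa Cruz FLyA list alone, the share was 38.3% and the difference 0.403 points (-4.94 to 6.02). FLyB-only peaks that carried a Santa Cruz peak had such a neighbour in 46.9% of cases, and the difference of the members from these was 2.84 points (-0.925 to 6.59), which includes 0. Members on all 4 lists exceeded the latter by 12.02 points (4.89 to 18.9), or by 7.89 (0.0482 to 15.5) without places beside a stretch, and members met by the Santa Cruz FLyB list alone by 4.31 (0.144 to 8.46). For members met by the FLyA list alone the difference was -8.57 points (-14.5 to -2.39).

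Among members met by 1 Santa Cruz list, the kind of neighbour followed that list. Away from the stretches, a FLyB-only R&D Systems peak lay within 10 kb of 39.1% of the members met by the Santa Cruz FLyB list alone (36.0 to 42.2%) and of 22.4% of those met by the FLyA list alone (17.8 to 27.6%), a difference, FLyA minus FLyB list, of -16.7 percentage points (-22.0 to -10.8). Over all R&D Systems FLyB peaks, 30.0% had such a neighbour. A FLyA-only peak lay within 10 kb of 24.5% of the former (21.8 to 27.2%) and 30.8% of the latter (25.6 to 36.3%), 6.32 points more (0.645 to 12.3), against 20.3% over all R&D Systems FLyB peaks. Common peaks without a Santa Cruz peak had a FLyB-only neighbour in 25.8% and a FLyA-only neighbour in 23.8% of cases. Members met by the FLyA list alone thus exceeded them in FLyA-only neighbours by 6.97 points (1.91 to 12.5), and members met by the FLyB list alone in FLyB-only neighbours by 13.2 points (10.1 to 16.5). FLyB-only peaks with a Santa Cruz peak had a FLyB-only neighbour in 37.7% of cases, and members met by the FLyB list alone differed from these by 1.37 points (-2.72 to 5.47). In the crossed comparisons, members met by the FLyA list differed by -3.42 points in FLyB-only neighbours (-7.91 to 1.74) and members met by the FLyB list by 0.653 points in FLyA-only neighbours (-2.10 to 3.58). The intervals of both crossed differences include 0. Members on all 4 lists exceeded the common peaks without a Santa Cruz peak in FLyB-only neighbours by 15.8 points (8.80 to 23.2). In FLyA-only neighbours they differed from them by 1.2 points (-4.65 to 8.08), although the Santa Cruz FLyA list had met them too. With 1 library per medium and antibody, medium and library cannot be told apart.

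In most sets of sites, neighbours were concentrated within the first kilobases. Around members met by the Santa Cruz FLyB list alone, FLyB-only peaks stood at 6.30 per kb per 100 sites between 400 and 1000 bp from the site and at 1.30 between 20 and 50 kb. Around common peaks without a Santa Cruz peak these values were 4.24 and 1.09, and around FLyB-only peaks with a Santa Cruz peak 6.81 and 1.22. FLyA-only peaks around members met by the Santa Cruz FLyA list alone stood at 4.18 between 400 and 1000 bp, 2.95 between 2 and 5 kb and 1.09 between 20 and 50 kb. These first and last values rest on 15 and 195 neighbours of 299 sites. Around common peaks without a Santa Cruz peak, FLyA-only peaks stood at 2.98, 1.49 and 0.925 in the same classes. Around members on all 4 lists they stood at 1.39 between 400 and 1000 bp, from 3 neighbours of 180 sites, and at 2.78 between 1 and 2 kb.

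**Figure D4:**
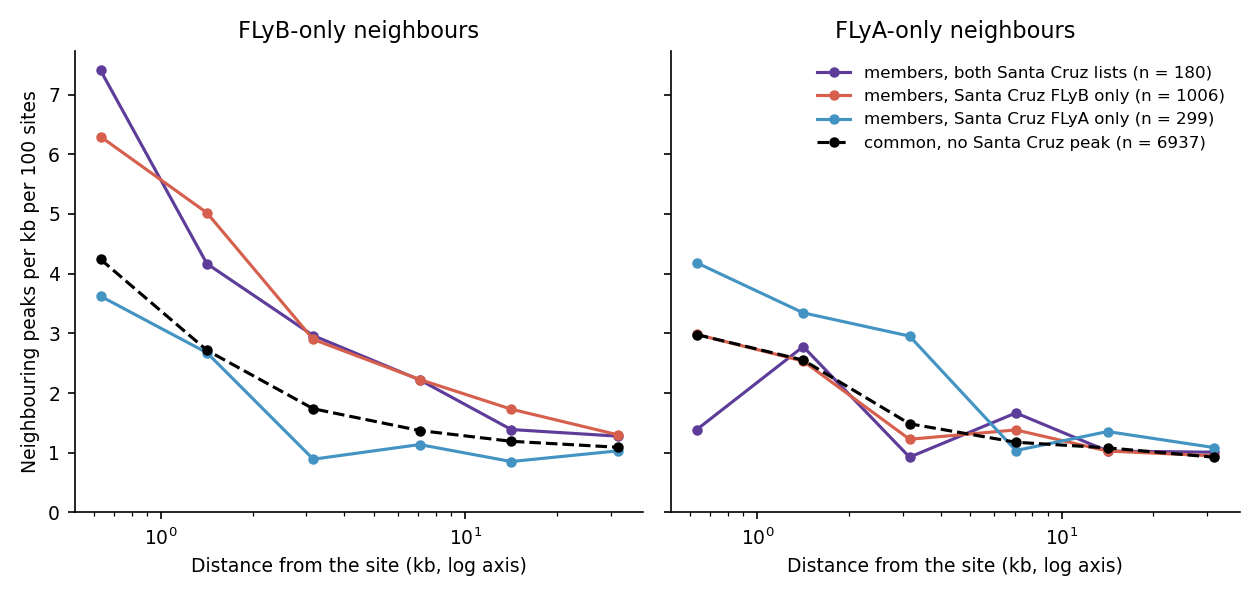
Medium-specific R&D Systems peaks per kb per 100 sites (vertical axis) at increasing distance from the site (horizontal axis, kb, log scale, drawn at the middle of each class), for members by the Santa Cruz lists that met them and for common peaks without a Santa Cruz peak, away from peak-free stretches. FLyB-only peaks near members met by the Santa Cruz FLyB list stand at 6.30 in the nearest class and FLyA-only peaks near members met by the FLyA list at 4.18. The points carry no error bars.

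Members were found on every autosome and on chromosome X, in numbers that followed the common peaks on most chromosomes. Without places beside a stretch, 17.6% of the common peaks were members (16.8 to 18.5%). Chromosome 19 stood below this with 14 members among 220 common peaks, a share of 6.36% (3.52 to 10.5%), and only 1 of these members was on all 4 lists. Chromosome 5 had the highest share with 102 of 475 (21.5%, 17.9 to 25.4%), and the intervals of the chromosomes other than 5 and 19 included 17.6%. Chromosome 17 held 106 members among 601 common peaks (17.6%, 14.7 to 20.9%). Chromosomes were compared after their values had been seen, over 23 chromosomes, and no test was made.

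**Figure D5:**
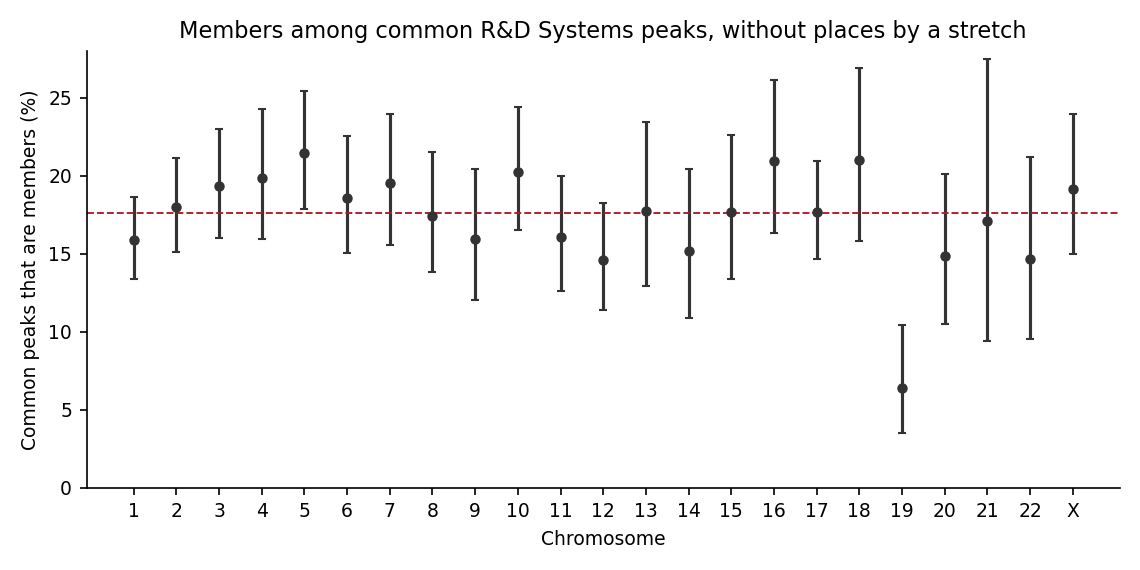
Share of common R&D Systems peaks that were members (vertical axis, %) on each autosome and chromosome X (horizontal axis), without places beside a peak-free stretch. Bars are exact 95% intervals and the dashed line is the share over these chromosomes, 17.6%. Chromosome 19 lies at 6.36%.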

How the data were processed

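The authors sequenced BRA ChIP-seq libraries of H9 cells with an Illumina Genome Analyzer II and called peaks with MACS, a program that finds regions where reads pile up. The submitters' processing notes name Bowtie 0.12.7 and hg19. The authors deposited 4 lists of positions, 1 per medium and antibody, with no score, and the track lines of the Santa Cruz lists name a threshold of 1e-12, while none is named for the R&D Systems lists. Handling of duplicate reads and the input used for each list are not given in the sources used here. The 2 input libraries were not analysed here.

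Overlaps and distances were computed in Python 3.11.15 (pandas 2.3.3, NumPy 2.4.6), intervals came from SciPy 1.17.1 and plots from matplotlib 3.10.9, and bedtools 2.31.1 was used to check the number of members. Functions were tested on simulated data. Positions are counted from 1. The spread takes the peak of each list that is nearest to the R&D Systems FLyB peak. Members and lists were chosen with earlier results of these data known. Peak-free stretches of 3 Mb, the distance of 1 Mb from them and the spread limit of 10 bp were chosen after seeing the data.

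Genes, start sites, motifs and sequences, and with them the genes to be named, were set out in the design and were not analysed, since the annotation at hand is of another build than hg19. Of the rule for named items, the 10 windows of 100 kb with most members were used. The windows of 1 Mb, sites with the smallest spread and chromosomes were named after their values were seen.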

Additional observations from a re-analysis of the deposited data

How the results depend on the processing

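A count is taken as moved beyond 1.5 times its reported value, and a share or median when it leaves its 95% interval, which covers counting error only. Of 28 alternative values, 21 stayed within these limits. Some of these could hardly leave them. Merging overlapping members changed no count, since no member overlapped another, and the autosomes alone held 1498 members. With Santa Cruz FLyA as the sole Santa Cruz list, that is without the Santa Cruz FLyB library, 537 members were left, whereas 1249 were left without the Santa Cruz FLyA library. With midpoints at most 100 bp apart the number of members was 1256 and the median distance between media was 24 bp, which is lower by construction. For members on all 4 lists the median was 20.5 bp, and 14.3% had another such member within 10 kb. The share with another member was 3.65% within 2 kb and 20.9% within 50 kb. Without places within 1 Mb of a peak-free stretch and chromosome Y, an alternative chosen after seeing the data, it was 7.14%, and 1485 members were left, 180 of them on all 4 lists. No paired analysis was run, and no result here comes from a test. The labels carry no replicate numbers, but they give the medium and the antibody of each list. The study treated the antibodies as replicate experiments, and a fit with media paired within antibody was not run. Alternatives for start sites, genes and motifs were not run. The lists hold no read depth, and the study describes fewer unique reads for the Santa Cruz antibody, so a site missing from a list is not shown to be unbound.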

Other observations

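The Santa Cruz lists differed in how often they met the R&D Systems lists at all. Of the Santa Cruz FLyA peaks, 858 of 2436 lay on any R&D Systems peak, and of the Santa Cruz FLyB peaks 2424 of 3007 did. Among those that did, 62.6% of the FLyA and 51.6% of the FLyB peaks lay on a member. In 4 cases a member overlapped more than 1 R&D Systems FLyA peak, and no member overlapped another member.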
